A study of Rattus norvegicus with 18 samples.

Results

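This account covers the first hour of membrane depolarization in control rat hippocampal neurons. The members are the arrays titled as control at 1 h of KCl and as control at 0 h of KCl, 3 of each, which make up 6 of the study's 18 Affymetrix arrays. All 10933 genes whose signal passed a filter on dim probe sets were compared, and the replicate numbers of the labels match each 1 h array with a 0 h array. The neurons of both groups were grown in dissociated culture and received lentivirus with control shRNAs on day 3. On day 10 both were treated for 1 h with AP5, an antagonist of NMDA-type glutamate receptors, and TTX, a toxin that stops sodium spikes. The 1 h group then had 55 mM extracellular KCl for 1 h, while the 0 h group had none, so its level is that of silenced cells rather than of spontaneously active ones. In the other arm of the study, neurons received shRNAs against MEF2A and MEF2D. The stated aim of the study was to find activity-regulated genes controlled by MEF2, a family of calcium-regulated transcription factors. The labels call the arrays biological replicates but name no animals or culture preparations. The p-values therefore measure the spread between arrays, which was estimated within the groups of all 18 arrays.

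High extracellular KCl depolarizes the membrane and opens L-type calcium channels. The calcium that enters activates kinase cascades that act on transcription factors already present in the cell, such as CREB and the serum response factor SRF. The genes that these factors switch on without new protein synthesis are called immediate early genes. Many of them encode further transcription factors, and others encode proteins that damp the same signals or act at synapses.

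The culture's cell types were read from marker genes. All 16 neuronal markers passed the filter, and their summed signal was 89800 to 95700 on the 1 h arrays and 86200 to 93700 on the 0 h arrays. Astrocyte markers were also present, with sums of 62100 to 79700 at 1 h and 63500 to 80800 at 0 h for the 12 of 13 tested. Summed over the 13 tested markers of proliferating and progenitor cells, replicate 1 stood apart in both groups. It had 26800 at 1 h and 23600 at 0 h, whereas replicates 2 and 3 had 17600 to 18000 at 1 h and 15000 to 17200 at 0 h. The 6 tested markers of the oligodendrocyte lineage also summed highest in replicate 1, with 15500 at 1 h and 16000 at 0 h. Replicates 2 and 3 had 10900 to 12200 at 1 h and 9900 to 11300 at 0 h for them. Endothelial and fibroblast markers summed to 13500 to 16800 at 1 h and 15600 to 17300 at 0 h for the 11 tested. In the fit without a replicate block, a single marker of the 6 cell type lists was called, Cd68, a lysosomal protein of macrophages, at 223 to 234 on the 1 h arrays against 152 to 182 on the 0 h arrays (log2 difference 0.45, SE 0.07). With the replicate numbers as a block, Pcna, a DNA replication clamp on the proliferation list, was called as well (log2 difference 0.27, adjusted p = 0.0381 with the block and 0.493 without it). That list's summed signal was higher at 1 h than at 0 h in all 3 numbered pairs, and its median log2 difference of 0.27 was the largest of the 6 lists. Its part in the results below was not tested. The other 9 tested markers of microglia and macrophages were not called, and the 10 together summed to 1970 to 2400 at 1 h and to 2060 to 2300 at 0 h. In bulk RNA a smaller number of cells of a type and less RNA per cell cannot be told apart. Arrays correlated at 0.994 to 0.997 within the 1 h group, at 0.994 to 0.998 within the 0 h group, and at 0.991 to 0.996 between the groups.

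After 1 h of KCl, 130 genes were higher than at 0 h and 165 were lower. These are 1.19% and 1.51% of the genes tested, called at a Benjamini-Hochberg adjusted p under 0.05 by limma, a linear model fitted to all genes on all 18 arrays. In a fit of the 6 control arrays alone, 76 genes were higher and 49 lower. For each of the 295 called genes all 3 arrays of a group lay on the same side of all 3 of the other, a separation seen upward in 4.86% and downward in 10.5% of all genes tested. A further 993 genes had an unadjusted p under 0.05 but no call. The responses differed in size. The 130 rises had a median log2 difference of 0.64, with 40 of at least 1 and 8 of at least 3. The 165 falls had a median size of 0.43 on the same scale, and only 5 of them, Txnip, Bhlhe40, Arrdc3, Rbak and Id1, reached 1. The genes that rose had a median array signal of 2150 at 1 h and 1010 at 0 h, and those that fell had one of 416 at 1 h and 624 at 0 h. Over all genes tested the median signal at 0 h was 869 and the median log2 difference was -0.02.

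The replicate numbers paired the arrays, as arrays with the same number deviated together, and the fit above leaves this pairing out. With the number as a block in the model, 235 genes (2.15%) were higher and 366 (3.35%) lower, and these included all 130 and all 165 genes called without it. Leaving out any 1 of the 6 arrays gave 100 to 144 higher and 88 to 160 lower genes, and 87 of the 130 and 72 of the 165 stayed called in each of these 6 fits.

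Transcription factors of the AP-1 group led the rises. AP-1 is a dimer of Fos-type and Jun-type proteins, and small Maf proteins and Atf3 are relatives that can pair with them. Of 14 members tested, 9 were higher and none lower (7 to 9 with any 1 array left out), with a median log2 difference of 0.97. Fosb, whose full-length and truncated proteins are long-known markers of neuronal activity, had signals of 4922, 6632 and 7864 at 1 h against 213, 240 and 135 at 0 h. This was the largest rise of the comparison, 33.4-fold (log2 difference 5.06, SE 0.19, adjusted p = 7.39e-11). Fos had 12314, 11251 and 11045 at 1 h against 1193, 613 and 273 at 0 h (log2 difference 4.30, SE 0.35, adjusted p = 8.18e-07). The 3 Fos values at 1 h lay close together, while those at 0 h spread widely, with replicate 1 highest. A dimmer Fos probe set did not separate the groups, with 272, 301 and 300 at 1 h against 282, 271 and 273 at 0 h (log2 difference 0.08, adjusted p = 0.568). Junb, which encodes a Jun-type partner, had 6394, 7519 and 7576 at 1 h against 427, 507 and 434 at 0 h, a 15.7-fold rise (adjusted p = 1.90e-12, the smallest of all genes). Jun had 7516, 6455 and 6539 at 1 h against 2630, 2974 and 2683 at 0 h, a 2.47-fold rise (log2 difference 1.31). Other Jun probe sets had log2 differences of 1.45 and 0.50, both called. Atf3 rose 3.86-fold, Fosl2 2.18-fold and Maff, a small Maf protein, 5.38-fold. A dimmer Fosl2 probe set had a log2 difference of 0.73 and was not called (adjusted p = 0.0963). Mafk and Maf had log2 differences of 0.63 and 0.81. Mafk was not called without replicate 2 of either group or without 1 h replicate 3 (adjusted p 0.0537 to 0.0766), nor Maf without 1 h replicate 1 or 3 or 0 h replicate 2 or 3 (0.0505 to 0.111). A dimmer Maf probe set that passed the filter had a log2 difference of 0.29 and was not called (adjusted p = 0.361). Fosl1, Jdp2, Batf3 and Mafg were not called, and Jund had a log2 difference of 0.22 (adjusted p = 0.0745, and 0.0245 with the replicate block).

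**Figure D1:**
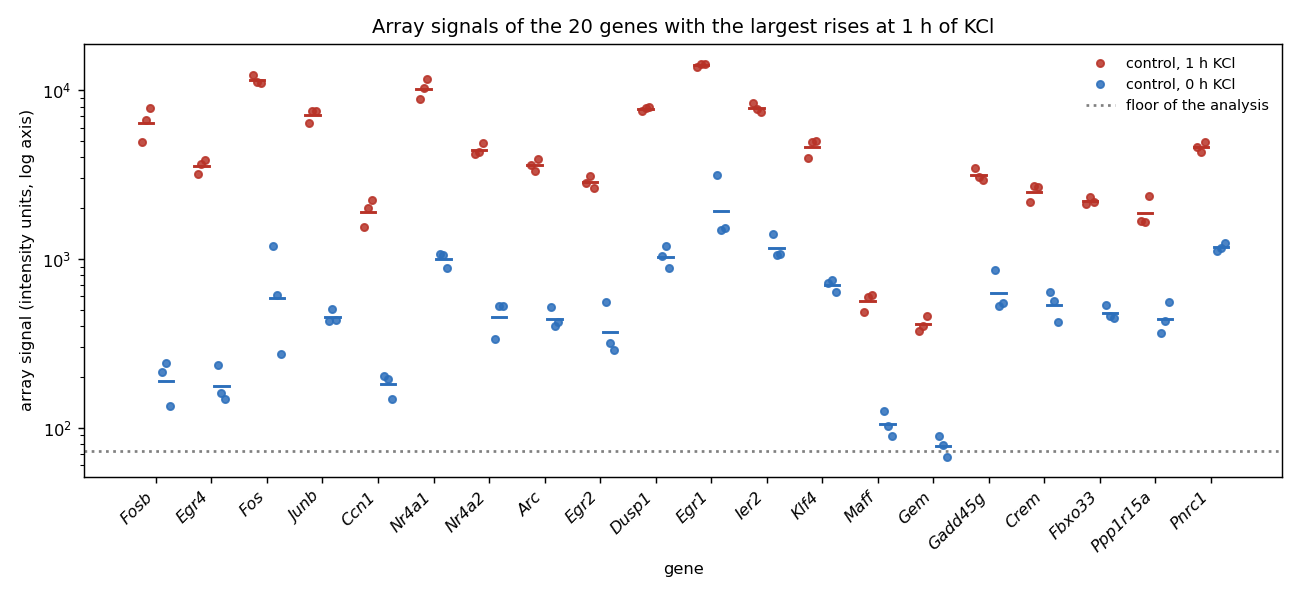
Array signals (intensity units, log axis) of the 20 genes with the largest rises, each with its 3 arrays at 1 h of KCl (red, left) and its 3 arrays at 0 h (blue, right). Bars are means of log2 signals, and the dotted line is the floor of 72.6 to which lower values were raised for the test. The groups are apart for every gene, and the 0 h arrays of Fos spread from 273 to 1193.

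Egr genes rose as well, with 3 of 5 tested members of the group higher. Egr proteins are zinc-finger activators first found in cells stimulated with growth factors. Egr4 had 3192, 3655 and 3846 at 1 h against 234, 160 and 148 at 0 h, a 20.1-fold rise (adjusted p = 1.20e-10). Egr1 had 13735, 14362 and 14239 at 1 h against 3164, 1479 and 1524 at 0 h, a 7.33-fold rise. Egr2 had 2834, 3081 and 2648 at 1 h against 553, 319 and 289 at 0 h, and rose 7.69-fold. As for Fos, replicate 1 was the highest 0 h array of all 3 Egr genes and of 19 of the 30 genes with the largest rises, against 4840 of the 10933 genes tested. Egr3 did not pass the filter on dim probe sets, with 112 to 124 at 1 h and 101 to 119 at 0 h. The corepressors Nab1 and Nab2, which bind Egr proteins, had log2 differences of 0.01 and -0.07 and were not called.

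All 3 Nr4a genes, which encode nuclear receptors that work without a known hormone, were higher. Nr4a1 had 8906, 10269 and 11634 at 1 h against 1069, 1060 and 890 at 0 h, a 10.2-fold rise (adjusted p = 2.10e-07). Nr4a2, known for its role in dopamine neurons, had 4162, 4307 and 4854 at 1 h against 333, 528 and 529 at 0 h, a 9.78-fold rise. Nr4a3 rose 2.77-fold by its brightest probe set, from which its fold is taken, while a dimmer probe set of the gene had 1547, 2220 and 1638 at 1 h against 301, 262 and 291 at 0 h (log2 difference 2.65). The gene's remaining probe set had 3827, 4168 and 4428 at 1 h against 2385, 2477 and 2317 at 0 h (log2 difference 0.79).

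Among 20 genes of the CREB pathway and the C/EBP family, 5 were higher and none lower (4 to 5 with any 1 array left out). Crem, whose short ICER products repress genes bound by CREB, had 2178, 2714 and 2664 at 1 h against 635, 565 and 424 at 0 h, a 4.69-fold rise (adjusted p = 6.09e-07). Of its 4 other probe sets that passed the filter, 2 were called, with log2 differences of 3.09 and 1.41, and 2 were not, with 0.69 and 0.21. Nfil3, a basic leucine zipper repressor, rose 2.62-fold, Sik1, a kinase that phosphorylates CREB coactivators, 2.18-fold, and Cebpb 1.94-fold. A dimmer Sik1 probe set had a log2 difference of 0.39 and was not called (adjusted p = 0.258). Atf4, the main factor of the integrated stress response, had a log2 difference of 0.30 and was not called without 0 h replicate 1 (adjusted p = 0.0547) or 1 h replicate 3 (0.0508). Creb1 itself had a log2 difference of 0.00 (SE 0.11).

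Of 13 Kruppel-like factors, 2 were higher, and 3 were higher and 2 lower with the replicate block. Klf4, a zinc-finger factor that restrains axon growth in retinal neurons of mice, had 3957, 4953 and 5022 at 1 h against 718, 748 and 635 at 0 h, a 6.61-fold rise (adjusted p = 3.25e-09). Klf2 had 714, 1163 and 1063 at 1 h against 425, 432 and 344 at 0 h, and was not called without 1 h replicate 2 or 3 or without 0 h replicate 3 (adjusted p 0.0572 to 0.0622), nor when all probe sets of a gene were averaged (adjusted p = 0.0671). The 2 other Klf2 probe sets that passed the filter had log2 differences of 0.13 and 0.01 and were not called. Klf9 had a log2 difference of 0.68 (adjusted p = 0.0515, and 0.00238 with the block) and Klf10 one of -0.47 (adjusted p = 0.0663, and 0.0136 with the block).

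Of 17 genes of the Ier, Btg, Tob and Zfp36 families, 4 were higher, namely Ier2, Tob1, Csrnp1 and Btg1. Ier2, a small nuclear protein, had 8431, 7765 and 7408 at 1 h against 1404, 1062 and 1070 at 0 h, a 6.72-fold rise (adjusted p = 2.56e-10). Tob1 and Btg1, antiproliferative proteins that recruit the deadenylase that shortens messenger RNA tails, rose 2.34-fold and 1.63-fold. Csrnp1, a nuclear protein named for its serine and cysteine content, rose 2.22-fold. Zfp36l1, a protein that speeds the decay of AU-rich messenger RNAs, had a log2 difference of 0.58 (adjusted p = 0.291, and 0.00135 with the block).

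Srf, which encodes the serum response factor, had 3838, 4210 and 4204 at 1 h against 3011, 2717 and 2642 at 0 h, a 1.46-fold rise. Ccn1, a secreted matrix protein and a classic SRF target, had 1538, 2013 and 2244 at 1 h against 203, 195 and 149 at 0 h, a 10.6-fold rise (adjusted p = 1.07e-07). The other 16 of 18 tested genes of SRF and of the actin cytoskeleton were not called, and their log2 differences included 0.03 for Actg1 and -0.23 for Vcl.

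Promoter sequence is shown for 8 of these and other strongly induced genes, chosen because letters bound by CREB or SRF were found in it. RefSeq's promoter table of rat assembly GRCr8 was matched by symbol for 9114 of the 10933 genes tested. The 250 bases before 1 annotated start per gene were searched on both strands, and any other start of a gene was not. The cyclic AMP response element (CRE) TGACGTCA, the palindrome bound by CREB, was present in 13 of the 103 matched promoters of genes that rose (12.6%), in 4 of 138 of genes that fell (2.90%) and in 3.09% of all genes tested. Its shorter core TGACG, which the full palindrome contains, was present in 62.1%, 26.1% and 28.7% of the same sets. The CArG box, the SRF site, was present in 4.85% of promoters of genes that rose, 2.17% of those that fell and 1.23% of all genes tested, and in 10.0% of the 30 matched promoters of genes that rose by a log2 of at least 1. The AP-1 letters TGANTCA were present in 4.85%, 1.45% and 4.26% of genes that rose, genes that fell and all genes tested. The TATA letters TATAAA were present in 15.5%, 5.80% and 6.36%. Among all 27457 promoters of the table, 1.70% held the CRE, 19.0% its core, 1.50% a CArG box, 6.36% the AP-1 letters and 13.1% the TATA letters. These are counts of letters in a window and not of binding.

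The promoters are those of SRF-site genes (Egr1, Egr2 and Dusp5) and of genes with a full CRE (Dusp1, Ier2, Maff, Ppp1r15a and Ccnl1), each 5′ to 3′ on the gene's own strand. Capitals mark CArG boxes, CREs and CRE cores, the last as CGTCA where it lies on the other strand.
Egr1 (chr18:26736828-26737077, plus strand): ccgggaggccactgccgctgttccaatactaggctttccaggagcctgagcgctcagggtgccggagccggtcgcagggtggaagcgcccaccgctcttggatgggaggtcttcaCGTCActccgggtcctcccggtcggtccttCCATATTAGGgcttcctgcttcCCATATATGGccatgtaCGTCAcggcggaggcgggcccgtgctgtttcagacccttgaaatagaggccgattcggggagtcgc
Egr2 (chr20:21054442-21054691, minus strand): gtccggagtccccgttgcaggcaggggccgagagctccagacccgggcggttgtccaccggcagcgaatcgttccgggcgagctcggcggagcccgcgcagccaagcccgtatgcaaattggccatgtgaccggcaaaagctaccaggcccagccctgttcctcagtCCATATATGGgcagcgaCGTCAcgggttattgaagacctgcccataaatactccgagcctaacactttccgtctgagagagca
Dusp5 (chr1:262543524-262543773, plus strand): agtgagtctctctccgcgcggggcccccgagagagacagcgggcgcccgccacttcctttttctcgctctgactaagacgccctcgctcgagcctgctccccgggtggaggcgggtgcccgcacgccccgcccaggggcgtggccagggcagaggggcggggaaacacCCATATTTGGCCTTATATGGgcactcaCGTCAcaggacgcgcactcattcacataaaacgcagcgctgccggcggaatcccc
Dusp1 (chr10:17184603-17184852, plus strand): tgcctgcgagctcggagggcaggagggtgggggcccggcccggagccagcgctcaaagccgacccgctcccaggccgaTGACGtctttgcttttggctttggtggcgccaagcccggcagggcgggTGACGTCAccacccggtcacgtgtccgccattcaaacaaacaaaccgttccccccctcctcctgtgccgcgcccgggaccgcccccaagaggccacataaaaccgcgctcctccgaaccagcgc
Ier2 (chr19:40399123-40399372, plus strand): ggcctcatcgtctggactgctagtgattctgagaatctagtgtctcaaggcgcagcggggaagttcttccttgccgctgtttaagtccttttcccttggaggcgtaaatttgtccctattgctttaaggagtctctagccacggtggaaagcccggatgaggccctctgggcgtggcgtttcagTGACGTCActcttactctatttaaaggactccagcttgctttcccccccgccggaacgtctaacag
Maff (chr7:112792537-112792786, plus strand): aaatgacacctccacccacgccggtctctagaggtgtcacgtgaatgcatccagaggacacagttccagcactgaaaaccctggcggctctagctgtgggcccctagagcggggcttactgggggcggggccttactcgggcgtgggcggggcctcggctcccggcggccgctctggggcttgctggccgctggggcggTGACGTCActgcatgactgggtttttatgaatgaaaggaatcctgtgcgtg
Ppp1r15a (chr1:105139597-105139846, minus strand): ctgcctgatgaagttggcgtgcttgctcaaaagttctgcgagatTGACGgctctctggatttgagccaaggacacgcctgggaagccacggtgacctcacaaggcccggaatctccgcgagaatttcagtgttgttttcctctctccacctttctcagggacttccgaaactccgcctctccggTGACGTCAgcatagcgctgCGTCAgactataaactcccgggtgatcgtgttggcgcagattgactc
Ccnl1 (chr2:152507469-152507718, minus strand): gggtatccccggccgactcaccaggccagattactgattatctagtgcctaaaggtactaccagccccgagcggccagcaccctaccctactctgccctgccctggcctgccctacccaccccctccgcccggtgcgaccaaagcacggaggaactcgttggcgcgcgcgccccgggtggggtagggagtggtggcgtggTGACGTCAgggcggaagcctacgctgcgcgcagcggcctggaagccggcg
Egr1 and Dusp5 held 2 CArG boxes each and Egr2 held 1, and all 3 also held at least 1 CRE core. In Dusp5 the boxes lay back to back, starting 82 and 72 bases before the start. The full CRE began 66 bases before the start in both Ier2 and Ppp1r15a, 51 before it in Maff, 50 before it in Ccnl1 and 124 before it in Dusp1. Of the 30 matched promoters of genes that rose by a log2 of at least 1, 5 held a full CRE and 3 a CArG box. Those are the promoters shown, and the rest held neither. Fosb, Klf4, Gadd45g, Fbxo33, Tiparp, Gadd45b, Tp53rkb, Tob1, Sertad1, Fosl2 and Bdnf also held no CRE core. This holds only for the 250 bases before the 1 annotated start, and a site near another start would be missed. The table held no entry matched to Fos, Arc, Jun, Atf3, Nr4a3, Klf2 or Txnip.

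Genes that damp the signals of depolarization rose in the same hour. Of 16 MAP kinase phosphatases, Sprouty proteins and related inhibitors, 5 were higher and none lower (3 to 5 with any 1 array left out). Dusp1, which dephosphorylates MAP kinases in the nucleus, had 7495, 7796 and 7897 at 1 h against 1044, 1194 and 881 at 0 h, a 7.49-fold rise (adjusted p = 2.39e-11). A dimmer probe set of the gene had 982, 997 and 1349 at 1 h against 72.0, 92.9 and 91.3 at 0 h. Dusp5, a nuclear phosphatase specific for ERK, rose 2.81-fold and Errfi1, an inhibitor of the EGF receptor, 1.80-fold. Dusp4 had a log2 difference of 0.62 and was not called without 1 h replicate 2 (adjusted p = 0.0528) or 3 (0.0614). Spry2 had a log2 difference of 0.56 and was called only without 0 h replicate 1 among the fits that leave out 1 array, with adjusted p up to 0.214 in the others. Dusp6, a cytoplasmic phosphatase for ERK, had a log2 difference of 0.29 (adjusted p = 0.264).

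Gem and Rem2 encode small GTPases that hold back voltage-gated calcium channels, and they were the 2 called among 21 genes of calcium and calcineurin feedback. Gem had 372, 402 and 458 at 1 h against 89.7, 78.6 and 67.2 at 0 h, a 5.12-fold rise (adjusted p = 6.08e-05). The last of these 0 h arrays lay under the floor of 72.6, which lowers the fold. Rem2 had 591, 1170 and 963 at 1 h against 418, 485 and 472 at 0 h, and was not called without 0 h replicate 1 or 1 h replicate 2 or 3 (adjusted p 0.0575 to 0.0695). A dimmer Rem2 probe set had a log2 difference of 0.62 and was not called (adjusted p = 0.128). Rgs2, which shortens signalling by Gq proteins, was the only one called of 13 RGS genes, at 3696, 4175 and 3879 at 1 h against 1578, 1301 and 885 at 0 h (3.21-fold). Of 13 genes of the NF-kappaB pathway, its cytoplasmic inhibitor Nfkbia rose 1.53-fold, and Tnfaip3, a ubiquitin-editing inhibitor of the same pathway, fell 1.39-fold.

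On the list of activity-regulated synaptic effectors, 5 of 20 tested genes were higher. The count was 3 to 4 with any 1 array left out, and 8 with the replicate block. The list is not limited to synaptic proteins. Arc, which promotes the removal of AMPA-type glutamate receptors from the membrane, had 3592, 3306 and 3889 at 1 h against 520, 398 and 421 at 0 h, an 8.09-fold rise (adjusted p = 1.37e-10). Tiparp, an ADP-ribosyltransferase, had 4198, 4513 and 4914 at 1 h against 1390, 1062 and 1049 at 0 h, a 3.92-fold rise. Rgs2, given above, is also on this list. Nrn1, an anchored growth-promoting protein, had a log2 difference of 0.62, with adjusted p up to 0.0704 without 1 h replicate 1 or 3 or 0 h replicate 2 or 3. Pcdh8 (protocadherin 8, or arcadlin) had one of 0.71 and was not called in any fit that left out 1 of the 6 arrays (adjusted p 0.0817 to 0.145).

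Among 25 secreted factors and neuropeptides, 2 were higher. Bdnf, the neurotrophin that binds TrkB, had 548, 596 and 615 at 1 h against 316, 285 and 265 at 0 h, a 2.03-fold rise (adjusted p = 0.00160). The groups did not overlap, and the lowest 1 h array was 1.73 times the highest 0 h array. The groups overlapped in a dimmer probe set of Bdnf, with 388 to 474 at 1 h and 348 to 394 at 0 h. Vgf, a precursor of neuropeptides, had 4023, 6070 and 6029 at 1 h against 3333, 3944 and 2516 at 0 h, and was not called without 0 h replicate 1 or 3 or 1 h replicate 2 or 3 (adjusted p 0.0728 to 0.154).

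Homer1 differed between its probe sets. Its brightest probe set had 2381, 2134 and 2050 at 1 h against 2234, 2416 and 2172 at 0 h, and was not called. Another of its 5 probe sets had 743, 1960 and 1181 at 1 h against 141, 156 and 124 at 0 h (log2 difference 3.10, SE 0.30, adjusted p = 7.26e-05 over 14735 probe sets). Homer1 scaffolds glutamate receptors at synapses and is known to make long and short forms, but the files do not say which form either probe set reads. Over these 14735 probe sets, 2.49% were called, and 36 genes that were not called by their brightest probe set had another that was. They include the Kruppel-like factor Klf6, with log2 differences of 0.74 and 0.91 for 2 dimmer probe sets against 0.15 for its brightest, the cleavage factor Cpsf6 (0.85 against 0.28) and the splicing factor Srsf2 (0.55 against 0.25).

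In 5 lists of synaptic transmission and channel genes, none was called by its brightest probe set. Of all genes tested, 1.19% were called higher and 1.51% lower. The 5 lists held 114 tested entries, so only a few calls would be expected at those shares. None was called among 30 glutamate receptors and scaffolds, 12 genes of inhibitory synapses, 23 of vesicle release, 19 sodium and calcium channels or 30 potassium channels, and the median log2 differences of these lists lay between -0.05 and 0.01, against -0.02 for all genes. In these 5 lists limma gave 5 values with an unadjusted p under 0.05, against 1288 of all 10933 genes. The single log2 differences ran from -0.32 for Syn1, a synaptic vesicle protein, to 0.29 for Sv2b, another one. With the replicate block, Syt4, a synaptotagmin of vesicle release, was called (log2 difference 0.21, adjusted p = 0.0384). Nor was any called among 23 genes of glycolysis, 23 chromatin regulators, 14 of the Notch pathway, 11 of cytokine signalling, 15 growth factor receptors, 11 housekeeping genes or the 8 of the MEF2 family and its histone deacetylases, where 10 had an unadjusted p under 0.05, 7 of them on the glycolysis list. With the replicate block 3 were called there, namely Slc2a3, the main neuronal glucose transporter, Pfkfb2, an enzyme that sets the rate of glycolysis, and Socs6, a cytokine signalling suppressor. Slc2a3 had 2790, 3329 and 3271 at 1 h against 2158, 2575 and 2391 at 0 h, and Pfkfb2 had 338, 370 and 344 at 1 h against 468, 440 and 411 at 0 h. Mef2a, Mef2c and Mef2d had log2 differences of 0.23, 0.10 and 0.07.

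**Figure D2:**
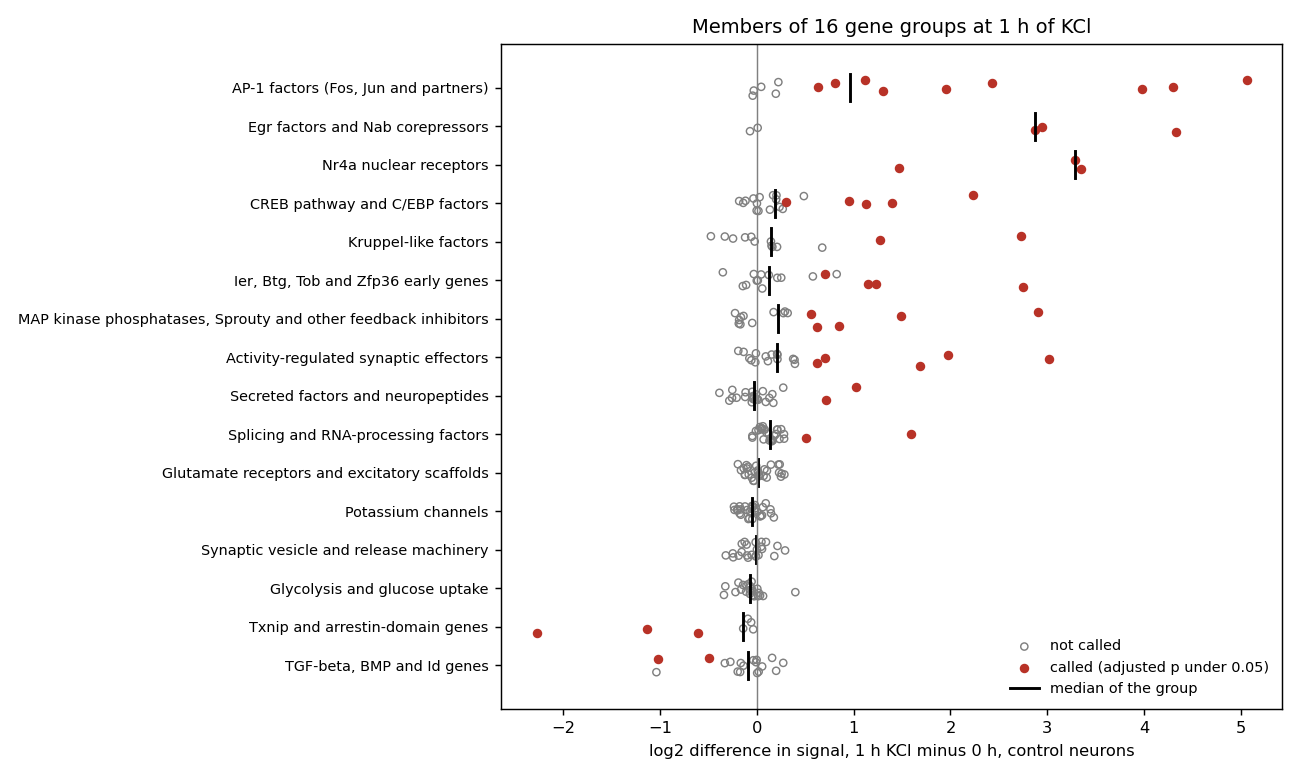
Log2 difference between 1 h and 0 h of KCl in control neurons for each tested member of 16 gene groups (rows). Filled points are genes called at an adjusted p under 0.05, open points the others, and vertical bars the group medians. The Egr and Nr4a groups have medians of 2.87 and 3.29, while the glutamate receptor, potassium channel and vesicle groups lie around 0 with no called gene.

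Growth arrest, stress and clock genes held a few strong members each. Gadd45g and Gadd45b, which take part in stress kinase signalling and DNA demethylation, were 2 of 3 called among 20 genes of growth arrest and apoptosis. Gadd45g had 3481, 3049 and 2954 at 1 h against 857, 527 and 547 at 0 h, a 5.03-fold rise, and Gadd45b rose 3.16-fold. The cell cycle inhibitor Cdkn1b, a smaller change, rose 1.38-fold. Gadd45a had a log2 difference of -0.47 and was not called.

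Of 27 genes of the unfolded protein and heat shock responses, 4 were higher (2 to 4 with any 1 array left out). Ppp1r15a, the phosphatase subunit that restores translation after stress, had 1688, 1664 and 2362 at 1 h against 366, 428 and 553 at 0 h, a 4.24-fold rise. Herpud1, which serves degradation at the endoplasmic reticulum, rose 1.65-fold. The chaperones Hspa5 and Hsp90b1 had log2 differences of 0.13 and -0.04 and Ddit3, a factor of the stress response, had -0.11, none of them called. Of 21 genes of cholesterol synthesis, Idi1, an isomerase of the isoprenoid pathway, was higher (1.40-fold), and 4 genes were with the replicate block.

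Of 17 clock genes, 2 were higher and 2 lower. Per1, a repressor of the clock, had 799, 891 and 864 at 1 h against 578, 486 and 410 at 0 h, a 1.75-fold rise. Cry2, with a log2 difference of 0.48, was not called without 1 h replicate 3 (adjusted p = 0.0577). A dimmer Cry2 probe set had a log2 difference of 0.17 and was not called (adjusted p = 0.443). The falls were those of Bhlhe40 and Bhlhe41, paired helix-loop-helix repressors. Bhlhe40 had 163, 111 and 125 at 1 h against 375, 268 and 263 at 0 h, a 2.27-fold fall (adjusted p = 0.00128). Bhlhe41 had 426, 389 and 359 at 1 h against 749, 520 and 545 at 0 h, and was not called without 0 h replicate 1 or 1 h replicate 2 or 3 (adjusted p 0.0735 to 0.103). Per2 and Dbp, other clock genes, had log2 differences of -0.07 and -0.09.

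Clk1, a kinase that phosphorylates SR splicing proteins, had 3876, 3682 and 3589 at 1 h against 1264, 1252 and 1184 at 0 h, a 3.01-fold rise (adjusted p = 5.00e-08). It was 1 of 2 called among 27 splicing and RNA-processing factors, the other being Ptbp1, with a log2 difference of 0.51 and adjusted p of 0.0511 to 0.116 without 1 h replicate 1 or 3 or 0 h replicate 2 or 3. The family member Clk4 had a log2 difference of 0.17 and was not called. Outside the list, and chosen after their values were seen, were further called genes whose proteins work in nuclear speckles or with the spliceosome. Ccnl1, a cyclin of splicing kinases, had 1545, 1539 and 1416 at 1 h against 799, 676 and 641 at 0 h. Rsrp1, an arginine- and serine-rich protein, had 5383, 5315 and 5180 at 1 h against 2977, 2480 and 2682 at 0 h. Pnn (pinin) had 2612, 2255 and 2158 at 1 h against 1503, 1285 and 1286 at 0 h. Luc7l3, Prpf38b and Cdk11b, which act in splicing, had log2 differences of 0.54, 0.44 and 0.36, and all of these from Ccnl1 on stayed called in each fit that left out 1 array. Others chosen in the same way did not. Srrm2, a spliceosome protein, had a log2 difference of 0.64 and was called in 2 of the 6 such fits. Rbm26, an RNA-binding protein, had a log2 difference of 0.50 and was called in 3. Rbm8a, of the exon junction complex, had 0.32 and was called in 5, all but the fit without 0 h replicate 2. The adjusted p values in the fits that lost these calls were 0.051 to 0.149, and they were lost for Srrm2 without 0 h replicate 1 or 2 or 1 h replicate 1 or 3, and for Rbm26 without 0 h replicate 2 or 3 or 1 h replicate 1.

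Some of the largest rises belonged to none of the lists. Fbxo33, a substrate adaptor of a ubiquitin ligase, had 2106, 2320 and 2185 at 1 h against 535, 457 and 445 at 0 h, a 4.62-fold rise (adjusted p = 1.83e-08). Pnrc1, a nuclear receptor coactivator, had 4631, 4282 and 4904 at 1 h against 1114, 1162 and 1236 at 0 h, a 3.93-fold rise.

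The largest fall was that of Txnip, the thioredoxin-interacting protein, an arrestin-fold protein that lowers glucose uptake and binds thioredoxin. It had 954, 545 and 584 at 1 h against 3278, 2839 and 3682 at 0 h, a 4.83-fold fall (log2 difference -2.27, SE 0.24, adjusted p = 2.26e-05), and every 1 h array was at most 33.6% of every 0 h array. Of 7 arrestin-domain and arrestin genes, 3 were lower (1 to 3 with any 1 array left out). Arrdc3, an adaptor for receptor ubiquitination, had 1180, 844 and 857 at 1 h against 2632, 1693 and 2031 at 0 h. It was not called without 0 h replicate 1 or 1 h replicate 2 or 3 (adjusted p 0.0557 to 0.0572). Arrdc4, with a log2 difference of -0.61, was called without 1 h replicate 1 and in none of the other 5 such fits (adjusted p up to 0.0773). Arrdc1, Arrdc2, Arrb1 and Arrb2 had log2 differences of -0.14 to -0.04 and were not called.

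Id genes encode helix-loop-helix proteins without a DNA-binding region that block differentiation factors and are classic BMP targets. Id1 had 429, 332 and 326 at 1 h against 951, 652 and 624 at 0 h, a 2.03-fold fall, and was not called without 0 h replicate 1 or 1 h replicate 2 or 3 (adjusted p 0.0616 to 0.0695). Id3 had a log2 difference of -1.04 (adjusted p = 0.0907, and 3.64e-04 with the replicate block). Id2 and Id4 had 0.06 and 0.16. Of 18 genes of TGF-beta and BMP signalling, 2 were lower, Id1 and Inhbb (0 to 1 with any 1 array left out).

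**Figure D3:**
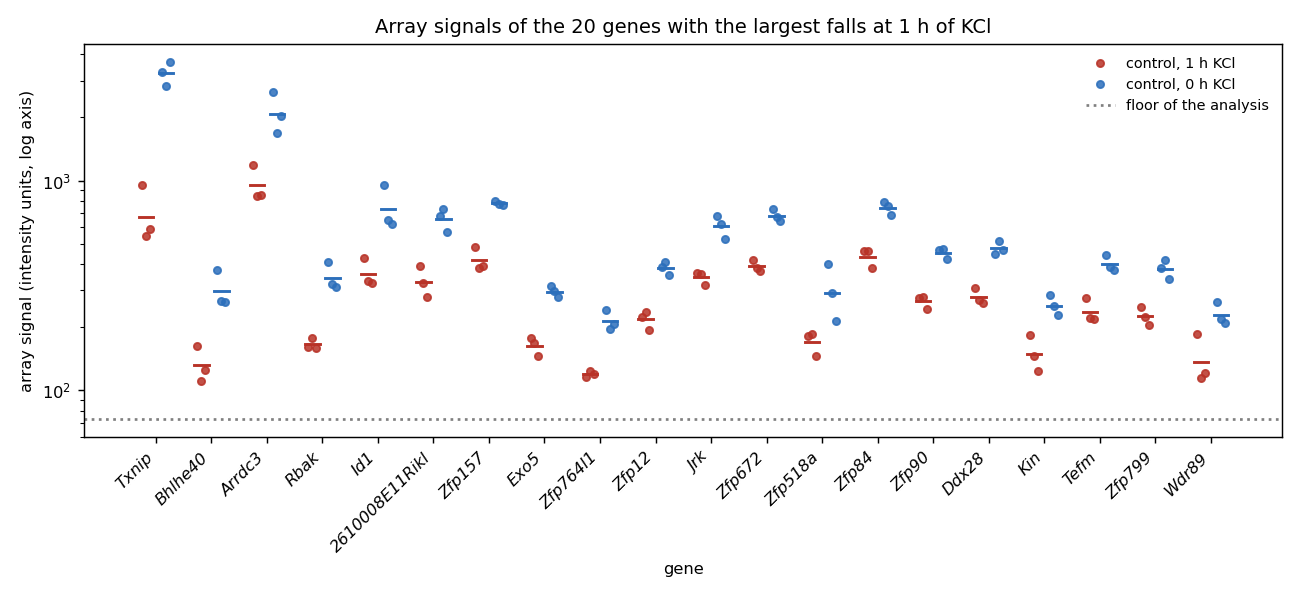
Array signals (intensity units, log axis) of the 20 genes with the largest falls, each with its 3 arrays at 1 h of KCl (red, left) and its 3 arrays at 0 h (blue, right). Bars are means of log2 signals, and the dotted line is the floor of 72.6. Txnip falls the farthest of the 20, and 8 of the 20 are genes whose symbol starts with Zfp.

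Many of the falls were of genes named for zinc fingers. Most proteins of this kind bind DNA and, where they carry a KRAB domain, repress transcription. Of 235 tested genes whose symbol starts with Zfp, Znf, Zbtb, Zkscan or Zscan, 45 were lower and 3 higher. The 45 are 19.1% of the class and 27.3% of all genes that fell. Among the other 10698 genes, 120 were lower (1.12%). With the replicate block it was 63 of the class and 303 of the other genes that were lower. The median log2 difference was -0.11 for the class and -0.02 for the other genes, and 73.6% of the class and 59.2% of the other genes were below 0. The symbol chose these genes, so they are not an exhaustive set of zinc-finger proteins, and the class was noticed in earlier results of the same arrays.

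**Figure D4:**
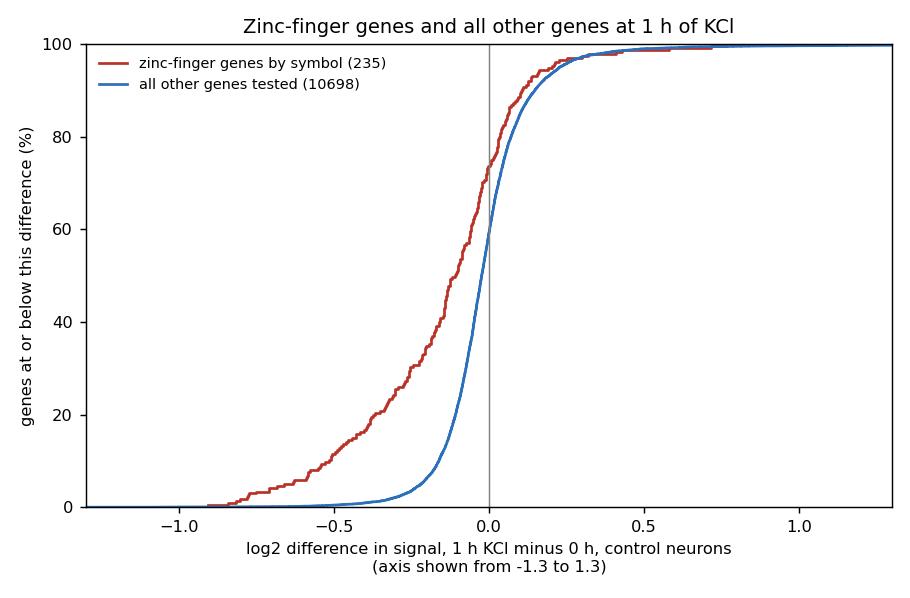
Share of genes (%) at or below each log2 difference between 1 h and 0 h of KCl in control neurons, for 235 zinc-finger genes by symbol (red) and the other 10698 genes tested (blue). The zinc-finger curve lies to the left over the falls, with 73.6% of its genes below 0 against 59.2% of the others.

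The median signal at 0 h was 566 for these genes and 876 for the other genes. The excess of calls was present at both levels. In the dimmer part of all genes, split at the median of their mean signal, 39 of 161 zinc-finger genes (24.2%) and 84 of 5305 other genes (1.58%) were lower. In the brighter part it was 6 of 74 (8.11%) and 36 of 5393 (0.668%). With any 1 array left out, 29 to 42 of the class and 56 to 118 of the other genes were lower. The counts of other genes were lowest without 0 h replicate 2 (56), 0 h replicate 1 (65), 1 h replicate 3 (66) and 1 h replicate 2 (77). Of the class, 29 were lower without 1 h replicate 3, and in a fit of the 6 control arrays alone 17 were, against 32 of the other genes. By prefix, 36 of 186 Zfp genes, 6 of 31 Zbtb genes, 2 of 8 Znf genes, 1 of 7 Zscan genes and none of 3 Zkscan genes were lower.

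Single members show the size of these falls. Rbak, a KRAB zinc-finger protein that binds the retinoblastoma protein, had 161, 177 and 160 at 1 h against 407, 322 and 311 at 0 h, a 2.08-fold fall (adjusted p = 1.65e-05). Its symbol lies outside the 5 prefixes. Zfp157 had 481, 382 and 391 at 1 h against 800, 771 and 764 at 0 h, a 1.87-fold fall (adjusted p = 1.31e-05). Zfp12 had 224, 237 and 194 at 1 h against 387, 408 and 355 at 0 h, and Zfp672 had 416, 382 and 371 at 1 h against 734, 667 and 640 at 0 h. Their 1 h means were 56.9% and 57.3% of the 0 h means, with no overlap of the groups. Zbtb45 fell 1.47-fold and Zfp668 1.49-fold. The 3 of the class that rose were Zfp131 (1.70-fold), Zbtb10 (1.64-fold) and Zbtb11 (1.35-fold). A dimmer Zfp131 probe set had a log2 difference of 0.67 and was not called (adjusted p = 0.226). Of the 36 matched promoters of zinc-finger genes that fell, none held a full CRE and 22.2% held its core, against 3.55% and 25.4% of the 197 matched promoters of all zinc-finger genes tested. With 36 promoters, none is close to a share of 3.55%.

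Other large falls were of genes outside the class. Exo5, an exonuclease, had 177, 168 and 145 at 1 h against 314, 296 and 277 at 0 h, a 1.82-fold fall. Ddx28, a helicase of the mitochondrial ribosome, fell 1.70-fold, Tefm, the mitochondrial transcription elongation factor, 1.69-fold, and Jrk, a protein named for the jerky mouse mutant, 1.75-fold. Jrk had 361, 360 and 317 at 1 h against 676, 620 and 527 at 0 h, with every 1 h array below every 0 h array.

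In the MEF2A and MEF2D RNAi arm, which shares no array with the control arm, the same hour of KCl gave 135 higher (1.23%) and 289 lower (2.64%) genes. Both arms share each gene's estimate of spread, and arrays with the same replicate number deviated together across the arms. The calls of the arms are therefore not independent of each other. Of the 130 genes that rose in control neurons, 98 were also called higher there, which is 75.4% of the control list and 72.6% of the RNAi list. Of the 165 that fell, 123 were called lower there, 74.5% of the control list and 42.6% of the RNAi list. The direction was the same for 128 of the 130 and for 164 of the 165, against 64.3% of all 10933 genes. Over the 130, the median log2 difference was 0.63 in RNAi neurons and 0.64 in control neurons, and over the 165 it was -0.43 in each arm. Of the zinc-finger class, 57 were lower in RNAi neurons and 45 in control neurons.

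The difference between the arms was tested as an interaction, the response of RNAi neurons minus that of control neurons. No gene was called (0.0%), with 363 of the 10933 at an unadjusted p under 0.05, and the median SE of this difference was 0.13 on the log2 scale. Of the 295 genes called in control neurons, 32 were among the 363. Taken gene by gene, the median interaction was -0.12 over the 130 that rose and 0.01 over the 165 that fell. These genes were chosen by their control response, which is part of the interaction. The smallest unadjusted p of the interaction was that of Fosl2, a Fos-type factor. Fosl2 had 736, 1278 and 1303 at 1 h against 186, 190 and 199 at 0 h in RNAi neurons, and 595, 926 and 942 at 1 h against 343, 392 and 374 at 0 h in control neurons (interaction 1.36, SE 0.28, unadjusted p = 1.94e-04). The adjusted p was 1. A p above the threshold does not show that the arms respond alike.

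**Figure D5:**
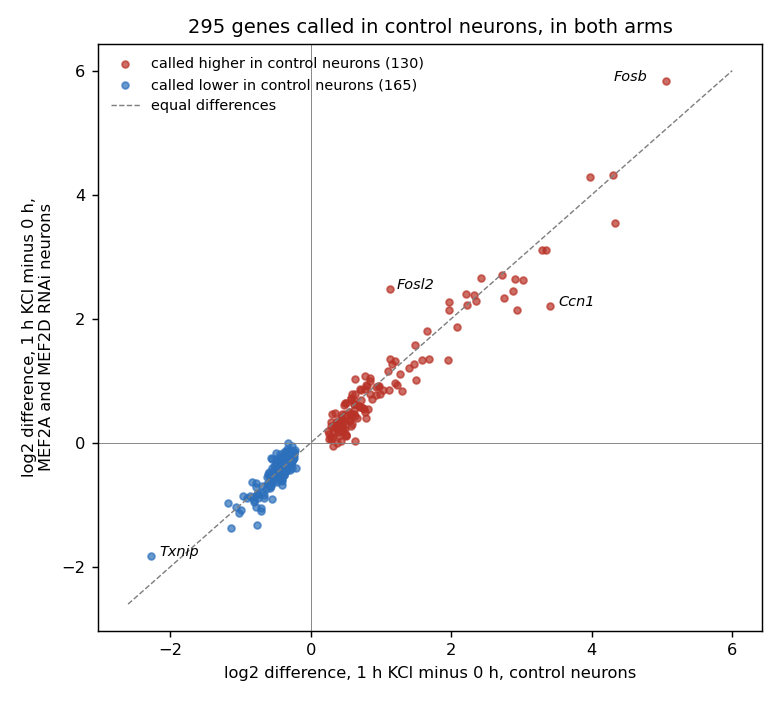
Log2 difference between 1 h and 0 h of KCl in control neurons (x axis) and in MEF2A and MEF2D RNAi neurons (y axis) for the 295 genes called in control neurons. Genes called higher are red, genes called lower blue, and the dashed line marks equal differences. All but 3 of the 295 have the same direction in both arms, and Fosl2 and Ccn1 lie farthest from the line among the genes named in it.

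After 6 h of KCl, control neurons had far more called genes, 16.1% higher and 25.5% lower than at 0 h. This comparison uses the same 0 h arrays, so its values are set beside those at 1 h and not tested against them. Of the 40 rises of log2 at least 1, which were chosen by their size at 1 h, 27 were smaller at 6 h and 13 larger. Of all 130 genes that rose, 78 were larger at 6 h. Their median log2 difference was 0.64 at 1 h and 0.90 at 6 h. Arc had mean signals of 447 at 0 h, 3596 at 1 h and 576 at 6 h, so that its log2 difference from 0 h was 3.02 at 1 h and 0.38 at 6 h. Egr2 had 2.94 at 1 h and 0.74 at 6 h, Egr1 2.87 and 0.90, and Tob1 1.23 and 0.26. Others were larger at 6 h. Bdnf had mean signals of 289 at 0 h, 586 at 1 h and 3093 at 6 h, and Crem, Nfil3, Atf3 and Rgs2 had log2 differences of 2.23, 1.39, 1.95 and 1.68 at 1 h and of 2.83, 2.48, 2.50 and 2.51 at 6 h.

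Of all 130 genes that rose at 1 h, 121 were called higher at 6 h, 1 lower and 8 neither. The 8 include Srf, with a log2 difference of 0.55 at 1 h and 0.15 at 6 h. The 1 that was lower was Zbtb11 (0.43 at 1 h and -0.22 at 6 h). Of the 165 that fell, 119 were called lower at 6 h, 40 were not called and 6 were higher. The 6 were Inhbb, a subunit of activins, and Rab33b, Znf48, C1h10orf88, Sprtn and Zfp707. Inhbb had mean signals of 1898 at 0 h, 1349 at 1 h and 3689 at 6 h. Its call at 1 h was lost without 0 h replicate 1, 2 or 3 or 1 h replicate 1 or 3 (adjusted p 0.0756 to 0.182). The 1 h calls of 4 others were also lost when single arrays were left out. For Rab33b this held without 0 h replicate 1 or 2 or 1 h replicate 2 or 3, for C1h10orf88 without any array but 1 h replicate 1, for Zfp707 without 0 h replicate 1 or 3 or 1 h replicate 2 or 3, and for Znf48 without 0 h replicate 2 or 1 h replicate 3 (adjusted p 0.0517 to 0.146). Sprtn stayed called in each of these fits. Txnip stayed low, with log2 differences of -2.27 at 1 h and -2.64 at 6 h, as did Arrdc4 (-0.61 and -2.72). Id1 had -1.02 at 1 h and 0.44 at 6 h, the value at 6 h not called.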

How the data were processed

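The labels' protocols give total RNA, extracted with a Qiagen RNeasy Micro kit, and biotin-labelled cRNA on Affymetrix arrays. The authors deposited 1 linear intensity per probe set and array. Their summarization and normalization, and the days of hybridization, are not stated in the labels. Medians of the 6 arrays were 241 to 244. Array signals depend on the probes as well as on abundance, and 3 arrays per group limit the precision.

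Intensities under the table's 20th percentile, 72.6, were set to that value before the log2 transform, which understates folds of dim genes. Of 31099 probe sets, 20832 had 1 gene symbol in the platform annotation, 436 several and 9831 none, and 20764 of the first matched RefSeq's gene table of GRCr8. Each gene took its probe set with the highest mean, and 10933 of 14218 genes exceeded the 40th percentile of their array on at least 3 arrays.

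All 18 arrays were fitted with limma 3.58.1 (R 4.3.3, lmFit and eBayes, 12 residual degrees of freedom, 1 mean per group). P-values are two-sided and adjusted by Benjamini-Hochberg over all genes tested, and differences are 1 h minus 0 h. Probe sets were fitted with the same model over all 20832 with 1 symbol, and adjusted over the 14735 that passed the filter. Their SEs and adjusted p-values therefore differ from those of the gene fit. Some genes called in the gene fit were not called there, such as Inhbb (adjusted p = 0.0745) and Pcdh8 (0.0821). The script was tested on simulated data. Alternatives changed the block, the arrays fitted, floor, scaling, filter, probe set rule and variance model, and left out each array. Arrays with the same replicate number correlated at 0.168 to 0.741 in their deviations from group means (45 pairs, 18 arrays), above 0.1 for every pair. Arrays with other numbers correlated at -0.63 to 0.43 (90 pairs), so the ranges overlap. The numbers from the labels were taken as pairs, which the block includes and the main fit leaves out.

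The named genes are the 30 largest rises and falls, the 15 smallest adjusted p-values, the listed genes and their other probe sets, apart from those said to be chosen later. The genes and lists were chosen with earlier results of these data known. The lists share members such as Rgs2, so their counts are not separate results. Genes without a unique symbol were not used. Some genes are not reported here.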

Additional observations from a re-analysis of the deposited data

How the results depend on the processing

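With the replicate block, control neurons had 235 higher and 366 lower genes, RNAi neurons 216 higher and 688 lower, and the interaction again none. Fitting the 6 control arrays alone gave 76 higher and 49 lower genes, and 139 and 135 with the block as well. Leaving out 1 array gave 100 to 144 higher and 88 to 160 lower genes, with 98 lower without 0 h replicate 1, 88 without 0 h replicate 2 and 95 without 1 h replicate 3. The other floors, scalings, filters, probe set rule and variance model gave 129 to 140 higher and 126 to 180 lower genes. Of 127 named called genes, none changed direction and 70 kept their call under every alternative in which they were tested. Without 1 h replicate 3, 36 lost it, and with the 6 control arrays alone 47 did. The cause was not tested. The block on all 18 arrays removed none of the 127 calls, and the block on the 6 control arrays alone removed 15. The depth of signal limits dim genes, whose folds are understated.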

Other observations

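Further called genes, chosen after their values were seen and all still called with any 1 of the 6 arrays left out, lie outside the groups described above. Cited2, a transcriptional coregulator that competes with HIF-1 for its coactivators, had 2818, 2769 and 2930 at 1 h against 1565, 1410 and 1336 at 0 h (log2 difference 0.98, SE 0.10). Sertad1, a nuclear regulator of cyclin-dependent kinases, had 1215, 1464 and 1604 at 1 h against 679, 593 and 585 at 0 h (1.20, SE 0.12). Gpr19, an orphan receptor coupled to G proteins, had 1256, 1462 and 1431 at 1 h against 663, 635 and 618 at 0 h (1.11, SE 0.08). Siah2, a ubiquitin ligase of the hypoxia response, had 1267, 1243 and 1477 at 1 h against 697, 755 and 775 at 0 h (0.84, SE 0.11).

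Some genes of metabolism and transport were higher too. Coq10b, a coenzyme Q-binding protein of mitochondria, had 2653, 2524 and 2996 at 1 h against 1266, 1151 and 1132 at 0 h (1.20, SE 0.11). Chka, the choline kinase that starts phosphatidylcholine synthesis, had 1927, 1903 and 2005 at 1 h against 1098, 880 and 1117 at 0 h (0.92, SE 0.11). Irs2, an adaptor of insulin receptors, had 1550, 1838 and 1936 at 1 h against 1053, 1040 and 997 at 0 h (0.78, SE 0.11). Slc38a2, a transporter of neutral amino acids including glutamine, had 3023, 2914 and 2567 at 1 h against 1856, 1845 and 1835 at 0 h (0.62, SE 0.11). Fzd8, a Wnt receptor, was lower, at 180, 196 and 221 at 1 h against 277, 301 and 288 at 0 h (-0.54, SE 0.09).

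The spread between replicates differed by group among the 30 largest rises. The SD of log2 signal was larger at 0 h for 20 of them, against 4975 of the 10933 genes tested. Its median over the 30 was 0.12 at 1 h and 0.22 at 0 h, and over all 10933 genes the medians were 0.11 at 1 h and 0.10 at 0 h. The 30 were chosen by their rise, so their 0 h signals are the lower ones. A part of signal level in this spread was not tested. For Egr1 the SD was 0.03 at 1 h and 0.62 at 0 h.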
